A study of Rattus norvegicus with 30 samples.

Results

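The promoters described here are 7 Ensembl rat gene identifiers that headed the promoter table of the perilesional cortex: ENSRNOG00000003025, ENSRNOG00000033139, ENSRNOG00000007261, ENSRNOG00000047159, ENSRNOG00000045815, ENSRNOG00000023271 and ENSRNOG00000002323. They were selected on their cortex counts, as the top rows of that table outside the mitochondrial genes, and they make up 7 of 20196 promoter identifiers. ENSRNOG00000023271 was listed with 2 promoter windows that held the same counts in every library, so that the 7 identifiers took 8 of 22307 rows, and its counts were used once. The comparison gene was ENSRNOG00000030371, which the selection names as mitochondrial. The files pair no identifier with a gene symbol, and 0 of the 8 identifiers matched the reference gene table used here, so that neither the genes' names and functions nor their positions and sequences are given.

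DNA came from adult male Sprague-Dawley rats, of which 5 (rats 6 to 10) received traumatic brain injury (TBI) by lateral fluid percussion and 5 sham-operated rats (rats 1 to 5) received the anaesthesia and all surgery without the impact. Perilesional cortex, ipsilateral hippocampus and ipsilateral thalamus were collected 3 months later, and methylated DNA was captured and sequenced (MBD-seq), which gave 30 libraries, 1 per rat and tissue. The hippocampal tissue included the dentate gyrus. All samples were bulk tissue, so that a different make-up of cells and a different methylation or DNA copy number within cells cannot be told apart.

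In MBD-seq a methyl-CpG binding domain pulls down DNA fragments that carry methylated CpG sites, and the read count of a window rises with its methylation, with its CpG density and with the number of DNA copies that the window's sequence has in the sample. Mitochondrial DNA is present in many copies per cell, unlike the nuclear genome, and is regarded as sparsely methylated.

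Promoter counts summed to 1862708 to 2439938 per library in sham and 1948924 to 3992056 in TBI cortex, 1523349 to 2139324 in sham and 1430875 to 2440662 in TBI hippocampus, and 2675177 to 3234475 in sham and 3062450 to 4227800 in TBI thalamus. Levels are given as CPM, the count divided by the library's sum of promoter counts and multiplied by 1000000. Several libraries stood apart from their label. By the correlation of log2 CPM over promoters outside the top 5% by level, 3 libraries were closer to the mean of another tissue than to their own: the cortex libraries of rats 4 and 6 were closest to hippocampus and the hippocampus library of rat 5 was closest to cortex. The thalamus library of rat 6 was nearly as close to hippocampus (r = 0.911) as to thalamus (r = 0.915), and the cortex library of rat 10 had the lowest correlation with its own tissue (r = 0.687). The 14 promoter rows that followed ENSRNOG00000030371 across the cortex libraries (r of at least 0.99 and a mean of at least 100 CPM, that gene included) took 43.8% of all promoter counts in cortex rat 10 and 19.8% in cortex rat 1, against 0.991% to 4.31% in the other 8 cortex libraries. These rows were chosen by r over all cortex libraries, rats 1 and 10 included, so that their shares in rats 1 and 10 are a description only.

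Each of the 7 promoters was higher in the cortex of the same 2 animals, sham rat 1 and TBI rat 10, than in any of the other 8 cortex libraries. Because these values chose the promoters, they are given as a description without a test. ENSRNOG00000003025 had 1008, 10.7, 45.3, 131.5 and 12.3 CPM in cortex of sham rats 1 to 5, and 185.6, 13.3, 14.5, 12.2 and 14881 CPM in TBI rats 6 to 10. Behind the highest value stood 59405 reads, and the promoter ranked 14th of 20196 by level in that library. The groups overlapped, since 4 of 5 TBI libraries lay within the sham range, and rats 3, 4 and 6 also had more than the remaining 5 of these 8, with rats 6 and 4 at ranks 194 and 750 of 20196.

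**Figure D1:**
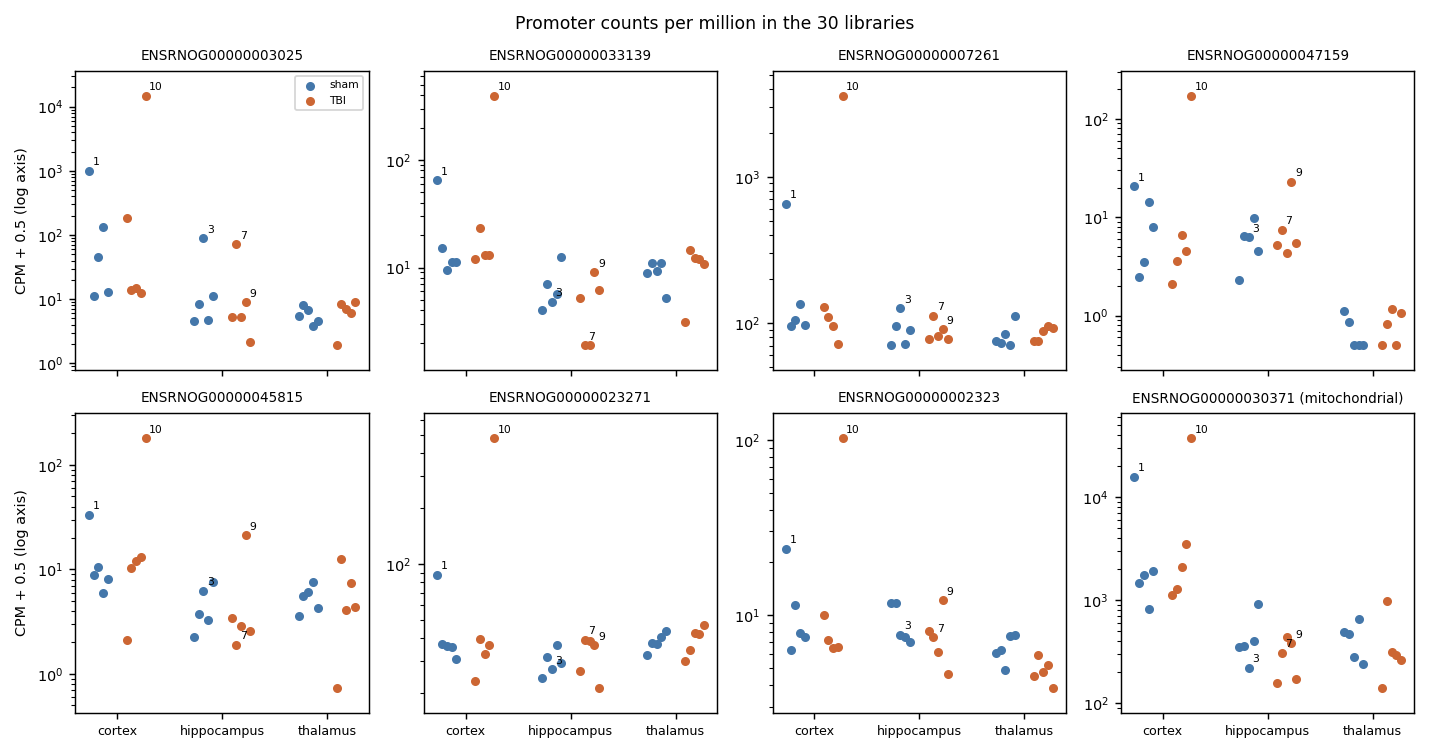
CPM (0.5 added, log axis) of the 7 promoters and the mitochondrial ENSRNOG00000030371 in the 30 libraries, with sham in blue and TBI in orange, each point 1 library and the numbers naming single rats. In the cortex, rats 1 and 10 lie above the other 8 libraries in all 8 panels, while in the hippocampus ENSRNOG00000003025 is high in rats 3 and 7 and in the thalamus no library reaches 10 CPM for it.

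ENSRNOG00000007261 had the highest median level of the 7 and ranked from 484 to 1996 of 20196 in the cortex libraries other than those of rats 1 and 10. Its levels were 651.7, 95.2, 103.5, 133.5 and 96.1 CPM in sham and 127.9, 109.8, 95.3, 71.7 and 3595 CPM in TBI cortex. ENSRNOG00000033139 had 64.8, 14.6, 8.96, 10.8 and 10.7 CPM in sham and 11.5, 22.6, 12.5, 12.7 and 396.5 CPM in TBI cortex. For both promoters rat 10 was the highest and rat 1 the second, and the remaining libraries of the groups overlapped. ENSRNOG00000047159, which had the lowest median of the 7, had 20.1, 1.94, 2.99, 13.8 and 7.52 CPM in sham and 1.59, 3.08, 6.02, 4.07 and 171.6 CPM in TBI cortex, so that rat 4 came next after rats 10 and 1.

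ENSRNOG00000045815 had 32.8, 8.26, 9.95, 5.42 and 7.52 CPM in sham and 1.59, 9.75, 11.5, 12.7 and 179.6 CPM in TBI cortex. ENSRNOG00000023271 had 86.9, 36.4, 35.3, 35.0 and 30.1 CPM in sham and 22.7, 39.0, 32.1, 36.1 and 479.5 CPM in TBI cortex. For these promoters too, rats 1 and 10 were the highest of their groups, and rat 6 was the lowest of all 10 libraries. ENSRNOG00000002323 was the last of the 7 in the table, with counts of 57, 12, 22, 15 and 13 in sham and 24, 13, 12, 12 and 405 in TBI cortex. The first promoter outside the list, ENSRNOG00000039238, stood below 6 rows that all followed ENSRNOG00000030371, with counts of 88, 48, 37, 23 and 43 in sham and 14, 36, 58, 52 and 615 in TBI cortex.

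Relative to the median of the 8 other cortex libraries (0.5 CPM added to both), rat 10 held 1030.5 times as much of ENSRNOG00000003025, 42.3 times as much of ENSRNOG00000047159, 35.9 times as much of ENSRNOG00000007261 and 31.7 times as much of ENSRNOG00000033139. The rises of ENSRNOG00000045815, ENSRNOG00000002323 and ENSRNOG00000023271 were 18.95-fold, 13.9-fold and 13.5-fold, and that of ENSRNOG00000030371 was 23.3-fold. All 7 promoters were at least 8-fold in this library, where 0.114% of all identifiers were. This share is a background to a choice made on the same values and nothing is read from it.

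In rat 1 the rises were smaller, at 69.8-fold for ENSRNOG00000003025 and between 2.45-fold (ENSRNOG00000023271) and 6.50-fold (ENSRNOG00000007261) for the other 6, with 9.85-fold for ENSRNOG00000030371. In rat 1, 1 of the 7 was at least 8-fold, as were 0.0743% of identifiers, and all 7 were at least 2-fold in both, as were 1.87% of identifiers in rat 1 and 2.85% in rat 10. ENSRNOG00000003025 had the highest fold of all identifiers in both libraries. With the 7 promoters and the 14 rows following ENSRNOG00000030371 left out of the library totals, the fold of ENSRNOG00000003025 was 1864 in rat 10 and 85.5 in rat 1.

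**Figure D2:**
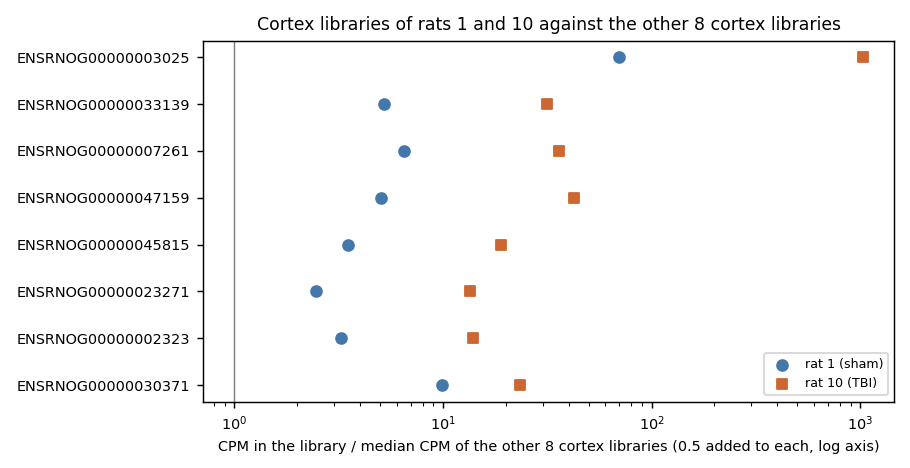
Level of each promoter in the cortex library of rat 1 (blue circles) and rat 10 (orange squares) divided by the median of the other 8 cortex libraries, with 0.5 CPM added to each, on a log axis where 1 is no difference. All points lie to the right of 1, rat 10 exceeds rat 1 for every promoter, and ENSRNOG00000003025 reaches 1030.5-fold in rat 10 and 69.8-fold in rat 1.

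The rises did not keep one proportion to each other. Above the median of the other 8 cortex libraries, the excess of ENSRNOG00000007261 was 55.5% of that of ENSRNOG00000003025 in rat 1 and 23.5% in rat 10. The excess of ENSRNOG00000023271 was 5.21% and 2.99% of it, and the excess of the mitochondrial ENSRNOG00000030371 was 1414% and 238.4% of it. The mitochondrial gene thus gained more CPM than ENSRNOG00000003025 in both libraries, and the ratio of their gains was the larger in rat 1.

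Together the 7 promoters took 1.98% of the promoter counts in cortex rat 10 and 0.189% in cortex rat 1, against 0.0156% to 0.0360% in the other 8 cortex libraries. The range was 0.0117% to 0.0265% over the 10 hippocampus libraries and 0.0112% to 0.0173% over the 10 of the thalamus. ENSRNOG00000003025 alone made up 75.1% of their counts in cortex rat 10 and 53.4% in cortex rat 1. The high levels were not found in the other tissues of the same 2 animals. In the hippocampus ENSRNOG00000003025 had 4.14 CPM in rat 1 and 1.64 CPM in rat 10, and in the thalamus 4.95 and 8.65 CPM, the latter being the highest level of that tissue.

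The fitted TBI effects in the cortex are given as a description. By edgeR's quasi-likelihood fit, the log2 fold changes of TBI over sham ran from 1.66 (ENSRNOG00000002323, SE 0.81) to 4.03 (ENSRNOG00000003025, SE 1.94), and 0% of the 22110 promoters tested passed the adjusted p (171 had an unadjusted p under 0.05, and DESeq2 called 0). The count at an unadjusted p under 0.05 was 93 without rat 5, 107 without rat 2, 327 without rat 1 and 1130 without rat 6, whose profile was closest to hippocampus. It was 167 without rat 4, whose profile was also closest to hippocampus. Without rat 10 all 7 log2 fold changes turned negative, from −0.53 for ENSRNOG00000023271 to −1.82 for ENSRNOG00000003025. Without rat 1 that of ENSRNOG00000003025 was 6.30 (SE 2.21), and that of ENSRNOG00000030371 was 3.08 in place of 1.41. Without rats 1 and 10, an alternative chosen after the data were seen, that of ENSRNOG00000003025 was 0.44 (SE 1.04).

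Within the 8 cortex libraries other than those of rats 1 and 10, the pairs of the 7 promoters had r of both signs. As those 2 libraries form a separate cluster, no r of these pairs over all 10 is given for the cortex, and r over 8 libraries is a description of log2 CPM values that share their library total. Of the 21 pairs, 10 had a positive r, and r ran from −0.798 (ENSRNOG00000003025 with ENSRNOG00000045815) to 0.832 (ENSRNOG00000045815 with ENSRNOG00000023271), with a median of −0.0668. Pairs of other promoters were not correlated in the cortex, so that this count has no background and nothing is read from it. Some of the promoters had few reads, such as ENSRNOG00000047159 with 4 to 28 in these libraries, and the part of counting error in r was not tested. ENSRNOG00000003025 moved with ENSRNOG00000007261 (r = 0.787) and with ENSRNOG00000002323 (r = 0.703). The libraries of rats 4 and 6, whose profiles were closest to hippocampus, were among these 8 and had the highest levels of ENSRNOG00000003025 and ENSRNOG00000007261 among them. Over the 6 libraries left without rats 4 and 6 as well, an alternative chosen after the data were seen, r of ENSRNOG00000003025 was 0.342 with ENSRNOG00000007261, 0.127 with ENSRNOG00000045815 and 0.955 with ENSRNOG00000002323, and that of ENSRNOG00000045815 with ENSRNOG00000023271 was 0.286.

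The mitochondrial ENSRNOG00000030371 had 15636, 1446, 1727, 815.3 and 1906 CPM in sham and 1108, 1272, 2093, 3489 and 37027 CPM in TBI cortex. In the 8 libraries without rats 1 and 10, its level went with 2 of the 7 promoters in a positive sense, the higher being ENSRNOG00000045815 (r = 0.628), and ran against ENSRNOG00000007261 (r = −0.955) and ENSRNOG00000003025 (r = −0.668). The other 5 promoters had a negative r with it. The r of all promoters with the mitochondrial gene was not computed over these 8 libraries. The count of 5 thus has no background and nothing is read from it. Over the 6 libraries without rats 4 and 6, r with the mitochondrial gene was −0.920 for ENSRNOG00000007261, 0.636 for ENSRNOG00000045815 and −0.0991 for ENSRNOG00000003025. That of ENSRNOG00000047159 was 0.425 there, against −0.0950 over the 8 libraries.

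In the hippocampus, whose libraries had no part in choosing the promoters, other rats stood out. The levels of ENSRNOG00000003025 were 4.14, 7.88, 89.0, 4.21 and 10.6 CPM in sham rats 1 to 5, and 4.71, 71.3, 4.74, 8.53 and 1.64 CPM in TBI rats 6 to 10. Rats 3 and 7 had 185 and 102 reads, against 4 to 21 in the other 8 libraries, and the groups overlapped. ENSRNOG00000007261 was highest in the same libraries, with 70.4, 94.5, 126.0, 71.1 and 88.9 CPM in the sham animals and 77.2, 111.8, 81.1, 89.8 and 77.4 CPM after TBI.

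Above the median of the other 8 hippocampus libraries, the excess of ENSRNOG00000007261 was 55.5% of that of ENSRNOG00000003025 in rat 3 and 48.9% in rat 7. ENSRNOG00000030371 was not high in these libraries, at 220.3 CPM in rat 3 and 308.2 CPM in rat 7 against a median of 368.8 CPM in the other 8. ENSRNOG00000047159 and ENSRNOG00000045815 had their highest hippocampus levels in TBI rat 9, at 22.5 and 20.7 CPM (50 and 46 reads), against 1.78 to 9.35 CPM and 1.40 to 7.07 CPM in the other 9 libraries. The remaining promoters ranged from 1.40 to 12.1 CPM (ENSRNOG00000033139), 20.9 to 38.4 CPM (ENSRNOG00000023271) and 4.10 to 11.7 CPM (ENSRNOG00000002323), with sham and TBI libraries intermixed.

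The question of the study, whether TBI changed promoter methylation within a tissue, was put to the promoters in the hippocampus by edgeR's quasi-likelihood test with Benjamini-Hochberg adjustment. The filter on low counts kept 6 of the 7 (ENSRNOG00000045815 was removed), and 0 of the 6 passed, as did 0% of the 20017 promoters tested. Over all promoters 574 had an unadjusted p under 0.05 (939 without rat 4) and DESeq2 called 0. The largest fitted change was 0.68 (SE 0.49, adjusted p = 1.00) for ENSRNOG00000047159, from a mean of 5.37 CPM (SD 2.78) in sham to 8.57 CPM (SD 7.85) in TBI over 5 rats each by edgeR. Without rat 9 it was −0.02.

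For ENSRNOG00000003025 the hippocampus means were 23.2 ± 36.9 CPM in sham and 18.2 ± 29.8 CPM in TBI (SD, n = 5), and the log2 fold change of −0.49 (SE 0.87) became 1.43 without rat 3 and −2.23 without rat 7. Sham and TBI levels overlapped for each of the 6 promoters, whereas 0.2% of all promoters tested had groups that did not overlap. The log2 fold changes of the other 4 lay between −0.39 (ENSRNOG00000033139, SE 0.46) and 0.15 (ENSRNOG00000023271, SE 0.19). ENSRNOG00000030371 had a log2 fold change of −0.55 (SE 0.33, adjusted p = 1.00, edgeR), from 446.9 ± 266.9 CPM in sham to 289.2 ± 125.3 CPM in TBI (n = 5).

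In the thalamus ENSRNOG00000003025 was low in every library. Its levels were 4.95, 7.65, 6.27, 3.36 and 4.05 CPM in sham rats and 1.42, 7.92, 6.53, 5.53 and 8.65 CPM in TBI rats. ENSRNOG00000047159 was at the limit of counting, with 2, 1, 0, 0 and 0 reads in sham and 0, 1, 2, 0 and 2 reads in TBI. A count of 0 still allows 3 counts, or 0.710 to 1.12 CPM in these libraries, a limit that covers counting error only.

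The levels of ENSRNOG00000045815 were 3.09, 5.10, 5.65, 7.10 and 3.74 CPM in sham and 0.236, 12.0, 3.59, 6.92 and 3.91 CPM in TBI thalamus, so that TBI rats 6 and 7 held both the lowest and the highest level. ENSRNOG00000033139 was likewise lowest in rat 6 (2.60 CPM) and highest in rat 7 (13.9 CPM), and so was ENSRNOG00000030371 (139.8 and 972.5 CPM). The rat 6 thalamus library was the one whose profile lay between thalamus and hippocampus, and its part in these values was not tested. ENSRNOG00000007261 ranged from 69.9 to 110.6 CPM, ENSRNOG00000023271 from 29.3 to 46.3 CPM and ENSRNOG00000002323 from 3.35 to 7.17 CPM.

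No TBI effect on these promoters passed the test in the thalamus. Of the 6 promoters kept by the filter (ENSRNOG00000047159 was removed) 0 were called, as were 0% of 21894 promoters by edgeR, with 198 at an unadjusted p under 0.05 and 0 by DESeq2. The unadjusted count was 146 to 262 without 1 of the other 9 rats and 1267 without rat 6, whose thalamus library lay close to hippocampus. The log2 fold changes ran from −0.37 (ENSRNOG00000002323, SE 0.32, adjusted p = 1.00, edgeR) to 0.24 (ENSRNOG00000033139, SE 0.32). For ENSRNOG00000002323 the mean was 6.01 ± 1.16 CPM in sham rats against 4.34 ± 0.762 CPM in TBI rats (SD, n = 5). None of the 6 had groups that did not overlap, where 0.0411% of the promoters tested did.

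The 2 tissues that had no part in the choice were then compared with each other, with the treatment as a covariate. ENSRNOG00000047159 was far lower in the thalamus, with 8 reads in the 10 libraries against 140 reads in the 10 hippocampus libraries, and a log2 fold change of −4.83 (SE 0.51, adjusted p = 5.02e-08, edgeR). The thalamus libraries had at most 0.653 CPM and the hippocampus libraries at least 1.78 CPM, the latter from 3 reads in rat 1. The share of all promoters that separated the 2 tissues in this way was not counted, so that nothing is read from it. ENSRNOG00000002323 was also lower in the thalamus, at 5.18 ± 1.28 CPM against 7.93 ± 2.57 CPM (SD, n = 10 libraries each), with a log2 fold change of −0.87 (SE 0.22, adjusted p = 0.00182).

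ENSRNOG00000003025 was lower in the thalamus by a log2 fold change of −2.10 (SE 0.56, adjusted p = 0.00256), and this rested on the hippocampus libraries of rats 3 and 7. With the rat as a block it was −1.30 (SE 0.46, adjusted p = 0.0217), it was −1.37 without rat 3 and −1.51 without rat 7, and without both it was −0.36 (SE 0.33, adjusted p = 0.374, edgeR). The fall of ENSRNOG00000007261 was small, at 88.8 ± 18.0 CPM in the hippocampus and 83.4 ± 12.8 CPM in the thalamus with a log2 fold change of −0.34 (SE 0.12, adjusted p = 0.0176). It did not pass without rat 7 (adjusted p = 0.0629), without rats 3 and 7 (adjusted p = 0.232) or with library totals in place of TMM (adjusted p = 0.504, edgeR).

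The other 3 promoters and the mitochondrial gene were not called. The log2 fold change was 0.51 (SE 0.28, adjusted p = 0.122) for ENSRNOG00000033139, −0.27 (SE 0.42) for ENSRNOG00000045815, 0.06 (SE 0.10) for ENSRNOG00000023271 and −0.05 (SE 0.27) for ENSRNOG00000030371. ENSRNOG00000033139 passed without rat 5 (0.68, adjusted p = 0.0292) and without the hippocampus library of rat 5 and the thalamus library of rat 6 (0.75, adjusted p = 0.00899, edgeR), and the latter setting left the calls of the 4 lower promoters in place. ENSRNOG00000033139 and ENSRNOG00000023271 also passed, as higher in the thalamus, with library totals in place of TMM (0.78 and 0.32).

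Thus 4 of 7 promoters were lower in the thalamus, where 28.2% of the 21931 promoters tested were, and 0 of 7 were higher, where 31.8% were. Of these 4, ENSRNOG00000003025 and ENSRNOG00000007261 were not called without rats 3 and 7, where 5069 of 21890 promoters tested were lower. Nothing is read from the count of 4. When library totals replaced TMM, the split over all promoters moved from 6973 higher and 6194 lower to 9555 higher and 3523 lower, and the median log2 fold change of all promoters from 0.07 to 0.33. Relative to that median the members moved little with the scaling, at −0.41 and −0.42 for ENSRNOG00000007261, −4.90 and −4.93 for ENSRNOG00000047159 and −0.942 and −0.945 for ENSRNOG00000002323. The labels name an Illumina Genome Analyzer for all libraries, whereas the study's methods name a HiSeq for the thalamus in a passage on RNA that the MBD-seq section refers back to, so that tissue, instrument and run cannot be told apart.

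**Figure D3:**
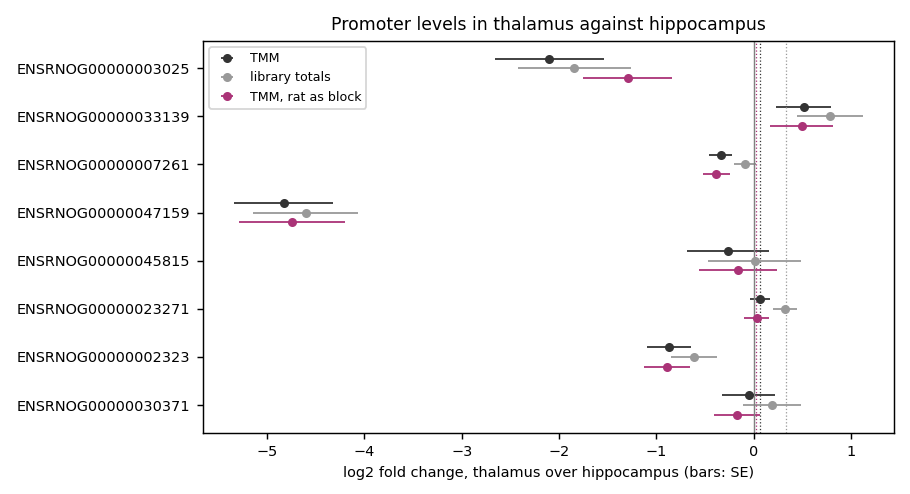
Log2 fold change of thalamus over hippocampus for the 7 promoters and the mitochondrial ENSRNOG00000030371 (points, with SE as bars) with TMM, with library totals and with the rat as a block, the dotted lines giving the median of all promoters under each. ENSRNOG00000047159 lies between −4.83 and −4.60, ENSRNOG00000003025 moves from −2.10 to −1.30 with the block, and ENSRNOG00000023271 follows the median.

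Whether the 7 promoters moved together was tested in the same 2 tissues by Pearson's r of log2 CPM over 10 libraries, sham and TBI pooled, with permutation p-values (two-sided, 100000 resamples) adjusted over all 56 pairs in both tissues. In the hippocampus 18 of 21 pairs had a positive r, with a median of 0.215, and 1 pair passed. That pair was ENSRNOG00000003025 and ENSRNOG00000007261, with r = 0.923 (permutation p = 0.00043, adjusted p = 0.0241) and Spearman's rho = 0.879 (permutation p = 0.00163, adjusted p = 0.0913). Without the 2 libraries farthest from the median of ENSRNOG00000003025, those of rats 3 and 7, r was 0.685 (exact permutation p = 0.056, n = 8), so that the call rested on them. The pair also failed the adjusted p with rat 3, rat 7 or rat 9 alone left out, at r of 0.864, 0.909 and 0.925. Over the same 8 libraries, as a description, 20 of 21 pairs had a positive r (median 0.436, from −0.164 to 0.763), as did all 7 pairs with ENSRNOG00000030371, of which ENSRNOG00000003025 was the highest (r = 0.709). Rat 5, whose profile was closest to cortex, had the highest levels of both among these 8, and over the 7 libraries without it, an alternative chosen after the data were seen, r of that pair was 0.561, 6 of 7 pairs with ENSRNOG00000030371 were positive, and ENSRNOG00000023271 was the highest (r = 0.762). Over all 10 libraries r of ENSRNOG00000003025 with ENSRNOG00000030371 was 0.0398. Pairs of other promoters were not correlated in either tissue, so that the counts of positive pairs have no background and nothing is read from them. With ENSRNOG00000030371, all promoters tested had a median r of 0.338 in the hippocampus and 0.384 in the thalamus over 10 libraries.

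**Figure D4:**
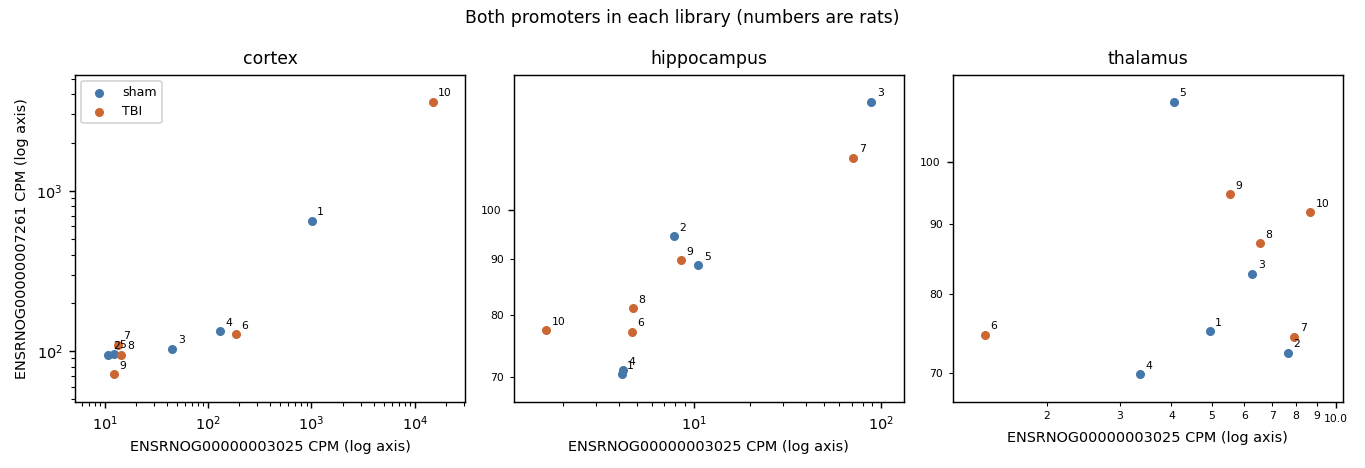
CPM of ENSRNOG00000003025 (x axis) and ENSRNOG00000007261 (y axis), both on log axes, in each library of the 3 tissues, with sham in blue, TBI in orange and the rat beside each point. Both are highest in rats 1 and 10 in the cortex and in rats 3 and 7 in the hippocampus, whereas in the thalamus the points show no common order (r = 0.154).

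The next hippocampus pairs were ENSRNOG00000033139 with ENSRNOG00000045815 (r = 0.658, adjusted permutation p = 0.322) and ENSRNOG00000047159 with ENSRNOG00000045815 (r = 0.652, adjusted permutation p = 0.365). The former changed little without rats 7 and 8 (r = 0.638), whereas the latter turned to −0.283 without rats 1 and 9. With ENSRNOG00000030371 the 7 promoters had r between −0.0372 and 0.469, and 0 of 7 passed (0 had an unadjusted permutation p under 0.05). Of the 6 promoters kept by the filter 0 reached an r of 0.6 with ENSRNOG00000030371, which 15.4% of all promoters tested did, and the median r of the 6 was 0.117 against 0.338 for all promoters.

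In the thalamus 15 of 21 pairs had a positive r, with a median of 0.154, and 0 passed, with 4 at an unadjusted permutation p under 0.05 (1 pair passed without rat 8). The highest was ENSRNOG00000033139 with ENSRNOG00000045815 (r = 0.864, adjusted permutation p = 0.0806, rho = 0.636). Without rats 5 and 6, the libraries farthest from the median of ENSRNOG00000033139, r was 0.657. Rat 7, the highest library for both promoters, was kept there, and r without rats 6 and 7 was not computed for this pair. ENSRNOG00000003025 followed ENSRNOG00000033139 (r = 0.834, adjusted permutation p = 0.133, rho = 0.624) and kept r = 0.766 without rats 4 and 6 (unadjusted exact permutation p = 0.0209, n = 8). ENSRNOG00000003025 and ENSRNOG00000007261, the pair called in the hippocampus, had r = 0.154 here, and the difference between the tissues was not tested.

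With the mitochondrial gene, ENSRNOG00000045815 (r = 0.769, adjusted permutation p = 0.133) and ENSRNOG00000033139 (r = 0.722, adjusted permutation p = 0.187) had the highest r in the thalamus, and 0 of 7 passed. Both rested on rats 6 and 7, the lowest and the highest library, and were 0.253 and 0.325 without them. These were 2 of 6 promoters at an r of at least 0.6, which 22.3% of all promoters tested reached. ENSRNOG00000007261 had a negative r with the mitochondrial gene that did not pass (r = −0.491, adjusted permutation p = 0.602), and r was −0.889 without rats 6 and 7 (unadjusted exact permutation p = 0.0027, n = 8). In the hippocampus r of ENSRNOG00000007261 with the mitochondrial gene was −0.0372 over 10 libraries. There it was −0.29 without rats 5 and 6, the libraries farthest from the median of the mitochondrial gene, and 0.367 without rats 3 and 7.

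**Figure D5:**
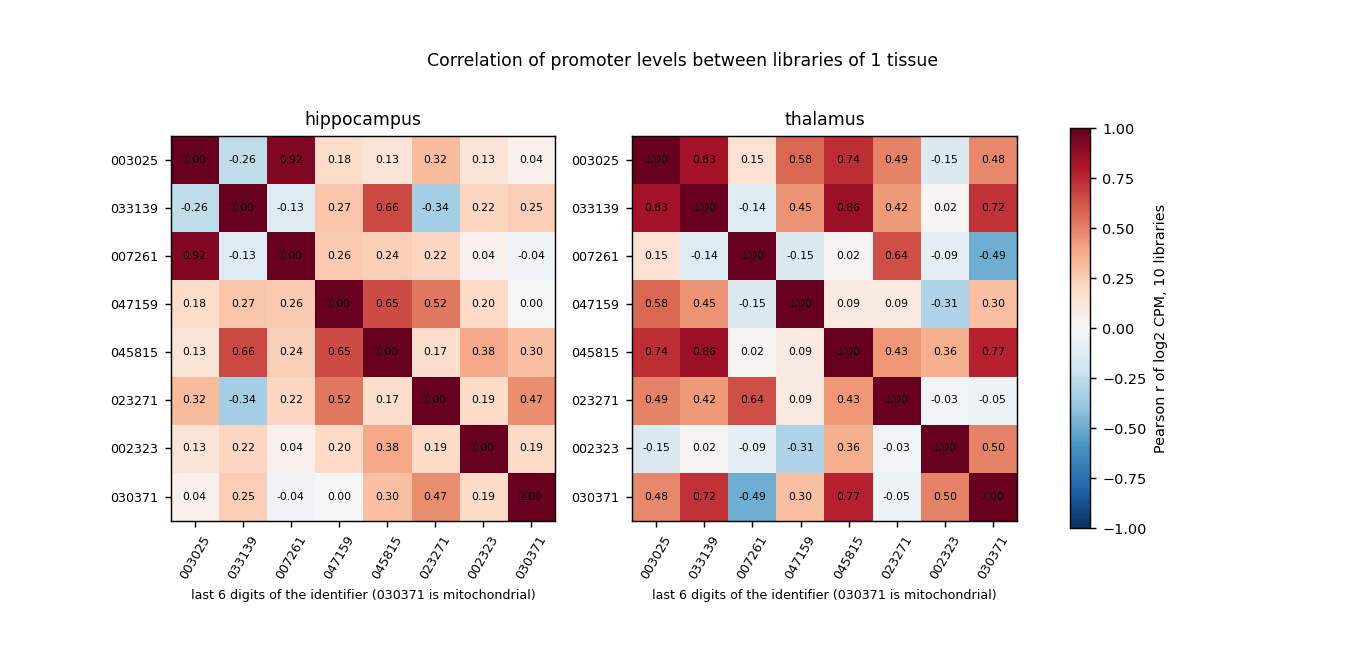
Pearson's r of log2 CPM between the 7 promoters and the mitochondrial ENSRNOG00000030371 over the 10 hippocampus libraries (left) and the 10 thalamus libraries (right), with identifiers cut to their last 6 digits and red for positive and blue for negative values. The darkest cell off the diagonal is ENSRNOG00000003025 with ENSRNOG00000007261 in the hippocampus (0.92), a pair at 0.15 in the thalamus, and the bottom row of the mitochondrial gene is pale in the hippocampus.

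The promoters most like the summed level of the 7 by r of log2 CPM over 10 libraries are named as a description. In the cortex, where the libraries of rats 1 and 10 set that order, they were ENSRNOG00000007326, ENSRNOG00000018637, ENSRNOG00000006846, ENSRNOG00000007755 and ENSRNOG00000033162, and without these libraries their r was 0.639, 0.339, 0.333, −0.101 and −0.671. In the hippocampus they were ENSRNOG00000020783 (r = 0.942), ENSRNOG00000028955, ENSRNOG00000004624, ENSRNOG00000005228 and ENSRNOG00000028158 (r = 0.900), and their r was 0.668 to 0.912 without rats 3 and 7. In the thalamus they were ENSRNOG00000002418 (r = 0.972), ENSRNOG00000038191, ENSRNOG00000026163, ENSRNOG00000046276 and ENSRNOG00000046955 (r = 0.953).

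The gene bodies of the same identifiers had almost no counts. Their counts summed over the 10 cortex libraries were 0 for 4 of the 7 and at most 7 for the others, and no single library held more than 3. Low gene body counts were usual in these tables, since 73.7% of the 26404 gene bodies had 7 or fewer in the cortex. ENSRNOG00000030371, by contrast, had 1149 gene body counts in the cortex, of which 708 came from rat 10.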

How the data were processed

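Methylated DNA was enriched with MethylMiner and sequenced. As the paper's methods and the processing notes state, the authors mapped reads to the rat Rnor_5.0 genome with STAR without splicing and deposited read counts per promoter, exon and gene body without normalization (R 3.1.0 is named). How reads with several matches were counted is not given in the sources used here. Of the 90 count columns, 0 belonged to no sample.

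Promoter rows that passed the filterByExpr function (count of at least 10 and total of at least 15) entered edgeR 4.0.16 in R 4.3.3, were scaled by TMM and were tested by the quasi-likelihood F test over all rows, with Benjamini-Hochberg adjustment at 0.05. DESeq2 1.42.0 was an alternative. CPM used library totals, with 0.5 added before log2. Correlations were computed with numpy 2.4.6, figures with matplotlib 3.10.9, and both tests were checked on simulated data. Replicate libraries differed by more than sampling noise (chi-square per degree of freedom 2.04 to 112.2 over 60 pairs), so that none was counted as a duplicate. Where nothing else is said, n counts rats.

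The members, the lists and the comparisons were chosen with earlier results of these data known. Named were the 7 promoters, ENSRNOG00000030371 and, in each tissue, the 5 other promoters kept by the filter with the highest r with the summed CPM of the 7. Groups and rat numbers were taken from the sample labels. Equal numbers mark the same animal, so that they pair tissues by design. The deviations from the group means of the hippocampus and thalamus libraries of a rat had a median r of −0.0471 (−0.394 to 0.191), with 2 of 10 rats over 0.1.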

Additional observations from a re-analysis of the deposited data

Results flagged for a closer look

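In groups of 5 libraries, a single library was marked where its gap to the nearest other exceeded the 95% critical value of Dixon's test. Of 48 groups (7 promoters and ENSRNOG00000030371 in 6 groups) 20 had such a library. Chance gives about 1 in 20 groups, or 2.4, but the pooled count cannot be set against this number. Most of the marks lay in the cortex, as listed below, and the cortex values chose the promoters. Rows of a library also share its total, so that the marks are not independent. They are given as a description, and nothing is read from their number.

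In sham cortex rat 1 stood apart for ENSRNOG00000003025 (1008 CPM), ENSRNOG00000033139 (64.8 CPM), ENSRNOG00000007261 (651.7 CPM), ENSRNOG00000045815 (32.8 CPM), ENSRNOG00000023271 (86.9 CPM) and ENSRNOG00000030371 (15636 CPM). In TBI cortex rat 10 stood apart for ENSRNOG00000003025 (14881 CPM), ENSRNOG00000033139 (396.5 CPM), ENSRNOG00000007261 (3595 CPM), ENSRNOG00000047159 (171.6 CPM), ENSRNOG00000045815 (179.6 CPM), ENSRNOG00000023271 (479.5 CPM), ENSRNOG00000002323 (101.5 CPM) and ENSRNOG00000030371 (37027 CPM). In the hippocampus the far libraries were sham rat 3 for ENSRNOG00000003025 (89.0 CPM), sham rat 5 for ENSRNOG00000030371 (909.1 CPM), TBI rat 7 for ENSRNOG00000003025 (71.3 CPM), and TBI rat 9 for ENSRNOG00000047159 (22.5 CPM) and ENSRNOG00000045815 (20.7 CPM). In the thalamus the far library was TBI rat 7 for ENSRNOG00000030371 (972.5 CPM).

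In the exon counts, which no comparison used, the exon ENSRNOE00000185604 was picked once its values were known. It had 815 counts in TBI cortex rat 10 and 84 in sham cortex rat 1, against 0 to 10 in the other 8 cortex libraries, and it was the exon with the highest fold of rat 10 over the median of those 8 among 247818 exons. Cortex rats 4 and 6 had 9 and 10 counts of it, and in the hippocampus rats 3 and 7 had 3 and 4 counts while the other 8 libraries had 0. In both tissues these were the libraries with the highest levels of ENSRNOG00000003025, and the thalamus libraries had 0 to 3 counts of the exon. The files do not pair the exon with a gene.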

How the results depend on the processing

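No TBI call arose in any of the 3 tissues under any alternative (0 promoters called), the alternatives being settings of edgeR and DESeq2. With another test, blocksStats, the paper reported changed promoters in the cortex and hippocampus but not in the thalamus. Its pyrosequencing of selected genes showed no altered methylation. In the thalamus against hippocampus comparison, 13167 promoters were called, 13291 with DESeq2, 12726 with the rat as a replicate block and 11736 to 14500 when 1 rat was left out. The block changed no call of a member. DESeq2 gave no adjusted p for ENSRNOG00000003025 in this comparison or in hippocampus TBI against sham, and none for any of the 7 in the cortex. The filter on low counts removed ENSRNOG00000045815 without rats 3 and 7, ENSRNOG00000003025 as well in hippocampus TBI against sham, and ENSRNOG00000047159 in the cortex without rats 1 and 10.

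Among the correlations, the count called in the hippocampus was 1, and 0 with Spearman's rho. Leaving out 1 rat gave a count of 0 to 1 for hippocampal pairs, and of 0 to 1 for thalamic pairs, where it was otherwise 0. The hippocampus call was lost without rat 3, rat 7 or rat 9 (r = 0.864, 0.909 and 0.925).

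Several log2 fold changes that had not passed a test changed sign. For ENSRNOG00000007261 in hippocampus TBI against sham (−0.00425), the value was 0.00613 with every row kept, 0.0846 without rats 3 and 7, and −0.0929 to 0.169 when 1 rat was left out. The ranges were −2.23 to 1.43 for ENSRNOG00000003025 and −0.0242 to 1.03 for ENSRNOG00000047159 in the hippocampus, and −0.419 to 0.383 for ENSRNOG00000045815 in thalamus TBI against sham. In thalamus against hippocampus, ENSRNOG00000045815 was 0.00784 with library totals, 0.00796 without member and mitochondrial rows in the total and 0.0100 without the 14 rows as well (−0.588 to 0.251 when 1 rat was left out), and ENSRNOG00000023271 was −0.00017 without hippocampus rat 5 and thalamus rat 6 (−0.0494 to 0.120). The cause was not tested. The totals without the 14 rows and the fits without pairs of libraries were chosen after seeing the data.

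Levels under about 10 CPM rest on few reads, and all values are relative within a library. Replicates are 5 rats a group, and the gene names and the sequences of the windows were not used here.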
